A study of Mus musculus with 16 samples.

Results

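The kinetochore, centromere and spindle checkpoint gene set examined here held 36 members of the 38720 gene entries in the deposited count table. The members were chosen by name, as genes for proteins that build the centromere, attach it to microtubules or watch over that attachment. The rule uses no measured value, but the set was chosen with earlier results of these data known. All 36 were found in the table under these symbols and all 36 passed the filter for low counts that left 16842 tested genes. They were grouped by role into 14 genes of the inner centromere, 9 of the outer kinetochore, 2 of the outermost corona, 1 centriole gene that carries a centromere name (Cenpj), 6 of the checkpoint and 4 of the chromosomal passenger complex. RNA was sequenced from adipose progenitors, the precursor cells in fat that can form adipocytes, taken from mice of 4 weeks. Wild-type mice (WT) were C57BL/6J, and knockout mice (KO) carried the allele Nr4a1tm1Jmi on a B6;129S2 background, with both alleles of Nr4a1 affected in the labels' notation (Nr4a1-/-). Progenitors came from subcutaneous fat (SAT) or visceral fat (VAT), which gave 4 groups of n = 4 libraries: WT SAT, KO SAT, WT VAT and KO VAT. The column names carry the letters MACS, a bead-based sort, and no source used here names its markers. The labels name the libraries of a group biological replicates without tying them to animals, and the p-values below measure only the spread between them. The knockout and the strain background cannot be told apart in this design.

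The centromere is the stretch of chromosome marked by the histone variant CENP-A, and a group of proteins known as the constitutive centromere-associated network (CCAN) sits on it through the cell cycle. In mitosis the outer kinetochore assembles on this base, and its NDC80 complex grips spindle microtubules. The spindle checkpoint holds back anaphase while kinetochores are unattached, and the passenger complex with the Aurora B kinase releases faulty attachments. Many of these genes are switched on only as cells approach division, while others are transcribed in cells that do not divide. In a bulk sample, a change in the number of cells that use a gene and a change in RNA per cell cannot be told apart.

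Libraries held 34655519 to 55551845 counts, of which the 36 members took 0.0391 to 0.0661%, or 15118 to 24995 counts per library. Single members ranged from 10 counts, for Cenpw in its lowest library, to 10072 counts, for Cenpb in its highest. Levels are given as CPM (counts relative to the library total after scaling between libraries), changes as log2 fold changes ± SE, and adjusted p is the Benjamini-Hochberg value of edgeR's quasi-likelihood test over all 16842 genes, called under 0.05. Nr4a1 read 997 to 1210 CPM in WT SAT against 195 to 209 in KO SAT, and in VAT 1430 to 1650 in WT against 297 to 327 in KO. Its log2 fold change was -2.43 ± 0.08 in SAT and -2.31 ± 0.08 in VAT. Pdgfra, which marks adipose progenitors, averaged 519 to 809 CPM over the groups, while Ptprc of leukocytes averaged 9.05 to 12.6 and Pecam1 of endothelium 0.745 to 1.84. Msln of mesothelium averaged 0.243 to 0.308 CPM in the SAT groups and 184 to 231 in the VAT groups. Acta2 of smooth muscle averaged 586 to 833 CPM in the SAT groups and 1510 to 1710 in the VAT groups. WT SAT replicate 3 and KO VAT replicate 4 stood farthest from their groups (mean correlation with the group's other libraries 0.985 and 0.989). Replicate 4 was the highest library for more members than any other replicate in each group (of 36, WT SAT had 17, KO SAT 23, WT VAT 18 and KO VAT 18).

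The knockout comparison asked which members differed between KO and WT progenitors in each depot. In SAT, 21 of the 36 members were higher in KO and 0 were lower, with a median log2 fold change of 0.78. Over all tested genes 3.46% were called higher and 2.43% lower in SAT, with a median of -0.01. In VAT, 24 members were higher and 0 lower, with a median of 1.0, beside 2.84% of all genes called higher and 1.26% lower and a median of 0.00. Of all VAT calls 69.3% were higher in KO, and 80.9% when libraries were scaled by their totals alone. The KO and WT libraries did not overlap, with KO higher, for 24 members in SAT and 28 in VAT, compared with 7.95% and 7.02% of all genes. At an unadjusted p under 0.05, 1 member (Cenpb) was lower in SAT and 0 in VAT. DESeq2 called that member lower in SAT and 0 in VAT, and limma-voom called 0 lower in both.

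The calls of both depots met on 19 members, which are 90.5% of the SAT calls and 79.2% of the VAT calls. These comparisons share no library, but both come from the same fit. The labels do not say whether SAT and VAT libraries came from the same animals, so the depots cannot be taken as independent. The 19 members were Cenpa, Cenpi, Cenpk, Cenpm, Cenpn, Ndc80, Nuf2, Spc24, Spc25, Cenpe, Cenpf, Bub1, Bub1b, Mad2l1, Ttk, Aurkb, Incenp, Birc5 and Cdca8, with median log2 fold changes of 1.25 in SAT and 1.62 in VAT. Of these, 16 kept their call in both depots under every alternative that was run, the exceptions being Cenpi, Cenpk and Cenpm. Cenph, Cenpl, Cenpp, Nsl1 and Pmf1 were called in VAT alone, and Cenpq and Dsn1 in SAT alone. The remaining 10, Cenpb, Cenpc1, Cenpo, Cenpt, Cenpw, Mis12, Zwint, Cenpj, Bub3 and Mad1l1, were called in neither depot, with medians of 0.04 and 0.03. With WT SAT replicate 3 left out 19 members were higher in SAT, and with KO VAT replicate 4 left out 23 were higher in VAT. With replicate 4 left out of all groups, an alternative added after the data were seen, 18 members were higher in SAT and 20 in VAT, all of them among the original calls.

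**Figure D1:**
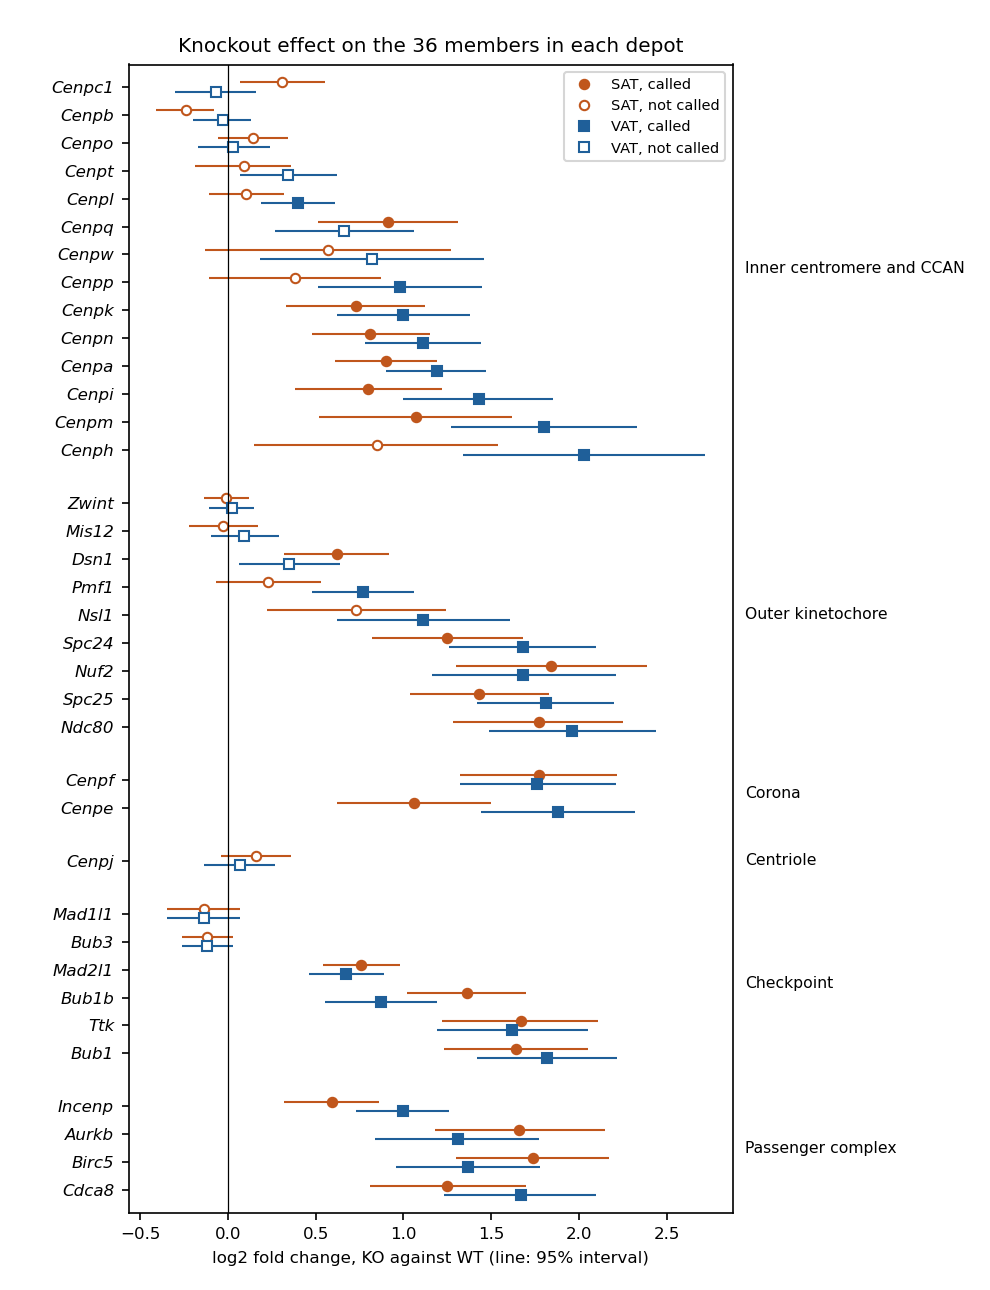
Log2 fold change of KO against WT (horizontal axis) for each of the 36 members in SAT (circles) and VAT (squares), ordered by role. Lines are 95% intervals, filled symbols passed adjusted p under 0.05, and the 10 members called in neither depot sit between -0.24 and 0.82 while the 19 called in both sit between 0.59 and 1.96.

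Levels per kilobase of exon placed 8 of the 10 members called in neither depot at the top of the set, while Cenpo of these ranked 12 and Cenpw 36, the lowest, in WT SAT. In WT SAT, Cenpb stood at 44.4 ± 4.99 CPM per kilobase (SD), Zwint at 12.1 ± 0.85, Bub3 at 7.40 ± 0.314, Mad1l1 at 5.29 ± 0.658 and Mis12 at 4.51 ± 0.201. Cenpc1 (2.65 ± 0.422), Cenpt (2.33 ± 0.506) and Cenpj (2.32 ± 0.101) followed, and these last levels lie within each other's spread. None of these 8 highest members was called in either depot, which follows from ending the count just above the first called member. The same 8 led when the longest transcript was used as the length, and again in WT VAT. Incenp came next at 1.86 ± 0.358, a level that overlaps the spread of Cenpt, and was called in both depots. The WT SAT level that sets this order also enters the SAT fold change. At the foot of the order stood Cenpf at 0.167 ± 0.0473, Ndc80 at 0.139 ± 0.0375, Ttk at 0.139 ± 0.0399 and Cenpw at 0.131 ± 0.0754, which do not differ beyond their spread. Bub1b stood at rank 15 in WT SAT and rank 8 in KO VAT, where it read 2.97 ± 0.2 CPM per kilobase, and Cenpb (36.6 ± 2.48), Zwint (11.8 ± 0.316) and Bub3 (7.48 ± 0.110) kept ranks 1 to 3.

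Members were also split by their plain CPM in WT SAT and read in VAT, whose libraries did not set the split. The 7 over 10 CPM were Cenpb, Zwint, Bub3, Mad1l1, Mis12, Cenpc1 and Cenpj, all among the 8 highest members per kilobase. This split thus reads the same genes and the same VAT calls again and is not a second line of support. The cut at 10 CPM was not among the planned settings. Of the 29 members at up to 10 CPM, 24 were higher in KO VAT, with a median log2 fold change of 1.19. Of the 7 members over 10 CPM, 0 were higher and 0 lower by edgeR, with a median of -0.03. Among all tested genes 4.42% of those at up to 10 CPM and 1.46% of those over 10 CPM were called higher in VAT, so the all-gene background differed between the levels too. The members over 10 CPM are the more deeply counted ones, and their intervals are narrow: Zwint's log2 fold change in VAT had a 95% interval of -0.11 to 0.15 and Bub3's of -0.26 to 0.03.

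**Figure D2:**
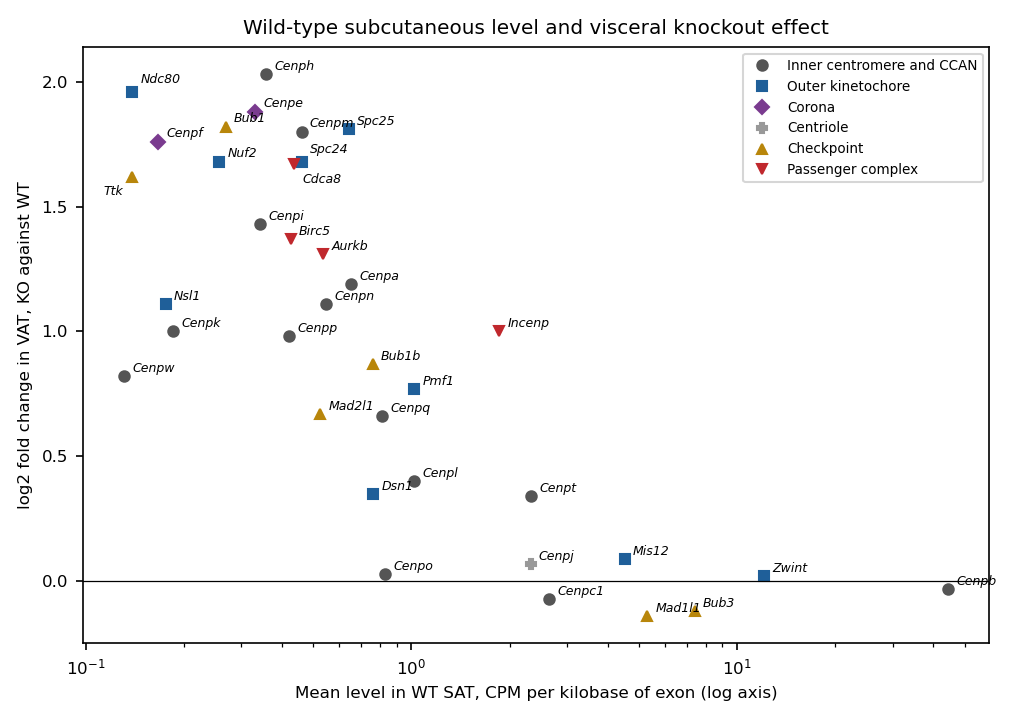
Mean level of each member in WT SAT, in CPM per kilobase of exon on a log axis (horizontal), against its log2 fold change of KO against WT in VAT (vertical), with symbols by role. The 8 members with the highest levels, from Cenpj at 2.32 to Cenpb at 44.4, have log2 fold changes of at most 0.34, and Ndc80 at 0.139 reached 1.96.

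Short sequences around the gene start are shown here because several members are textbook examples of genes with a cell-cycle element at the promoter. The cell cycle genes homology region (CHR), with the letters TTTGAA or the variant TTCGAA, is bound by the repressor complex DREAM and by B-MYB and FOXM1 with MuvB, and it often lies downstream of CCAAT boxes, which NF-Y binds. RefSeq promoters (GRCm38.p6, 250 bases before and 50 after the start) were at hand for 32 of the 36 members, with 36 promoters in all. The members without one were Spc24, Nsl1, Aurkb and Incenp. Both strands were searched, and a match is a description of letters, not proof of a bound site. The letters TTTGAA occurred in 13 of 36 member promoters (36.1%) and in 17.9% of all 32851 promoters. TTCGAA occurred in 3 (8.33% against 1.56%), CCAAT in 24 (66.7% against 37.4%), the E2F core TTCCCGC in 9 (25.0% against 4.60%) and the E2F core TTGGCGC in 1 (2.78% against 2.45%). In a narrower window of 50 bases on each side of the start, added after the data were seen, TTTGAA occurred in 10 member promoters (27.8% against 4.94% of all), TTCGAA in 1 (2.78% against 0.374%) and CCAAT in 15 (41.7% against 13.6%).

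In the narrow window 11 members held a CHR, and 10 of them are printed below in windows of 30 bases, 5′ to 3′ on the gene's strand, with the CHR in capitals. TTCAAA is TTTGAA read on the opposite strand, and TTCGAA reads the same on both.
Ndc80, chr17:71526811-71526840, minus strand: gaaactttaaaaTTCAAAccgccttgggtt
Spc25, chr2:69206172-69206201, minus strand: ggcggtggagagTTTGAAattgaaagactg
Cenpa, chr5:30666890-30666919, plus strand: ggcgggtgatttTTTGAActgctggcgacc
Cenpn, chr8:116921719-116921748, plus strand: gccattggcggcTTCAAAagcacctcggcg
Cenpw, chr10:30200548-30200577, minus strand: tccggcggccaaTTCAAAtcgaccactcgg
Cenpf, chr1:189688067-189688096, minus strand: ggcggcgggcagTTTGAAtcgctcgtgctg
Bub1, chr2:127831828-127831857, minus strand: ctgcgcggggaaTTCGAAtcgccggcggcc
Bub1b, chr2:118598231-118598260, plus strand: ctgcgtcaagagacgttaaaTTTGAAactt
Bub3, chr7:131560315-131560344, plus strand: gagccgttggcgTTCAAAatcagccaatga
Ttk, chr9:83834684-83834713, plus strand: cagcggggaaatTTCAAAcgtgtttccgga
Of the 11 members with a CHR in the narrow window, 9 were higher in KO in both depots, with medians of 1.36 in SAT and 1.62 in VAT over the 11, and the others, Bub3 and Cenpw, were called in neither. Among the 21 matched members with no CHR in that window, 9 were higher in SAT, 11 in VAT and 7 in both, with medians of 0.38 and 0.66. Nuf2, Cenpe and Birc5 were higher in both depots and hold no such letters in that window. Spc24, Aurkb and Incenp, also higher in both depots, had no matched promoter and are in neither set.

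In the 100 bases before a start, 8 members held 2 or more CCAAT boxes: Bub1, Bub3, Cdca8, Cenpk, Cenpq, Mis12, Spc25 and Ttk. A selection of 4 is printed (boxes in capitals, ATTGG being CCAAT on the opposite strand), namely Bub1, Spc25 and Ttk, which were higher in KO in both depots, and Mis12, which like Bub3 was not called in either.
Bub1, chr2:127831860-127831959, minus strand: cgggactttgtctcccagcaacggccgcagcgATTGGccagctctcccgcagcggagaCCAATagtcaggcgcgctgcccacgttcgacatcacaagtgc
Spc25, chr2:69206214-69206313, minus strand: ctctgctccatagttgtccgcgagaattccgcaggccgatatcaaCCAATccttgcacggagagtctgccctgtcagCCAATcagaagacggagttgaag
Ttk, chr9:83834589-83834688, plus strand: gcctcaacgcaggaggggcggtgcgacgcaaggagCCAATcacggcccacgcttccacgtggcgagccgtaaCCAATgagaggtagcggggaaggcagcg
Mis12, chr11:71019511-71019610, plus strand: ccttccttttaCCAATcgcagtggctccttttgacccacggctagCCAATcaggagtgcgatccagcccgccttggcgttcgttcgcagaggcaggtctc
Each of the 4 holds 2 CCAAT boxes in this stretch. Bub1, Spc25 and Ttk also hold a CHR after the start, at bases 15 to 20, 25 to 30 and 8 to 13 counted from the first transcribed base as 1. No TTTGAA or TTCGAA was found in the Mis12 window. The members do not divide cleanly by these letters, as Bub3 shows with a CHR and CCAAT boxes and no call. The arrangement in Bub3 differs, however. Its CHR lies before the start, at bases -43 to -38, between its 2 CCAAT boxes. Counted from another RefSeq start of Bub3, the same letters lie at -167 to -162, outside the narrow window.

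**Figure D3:**
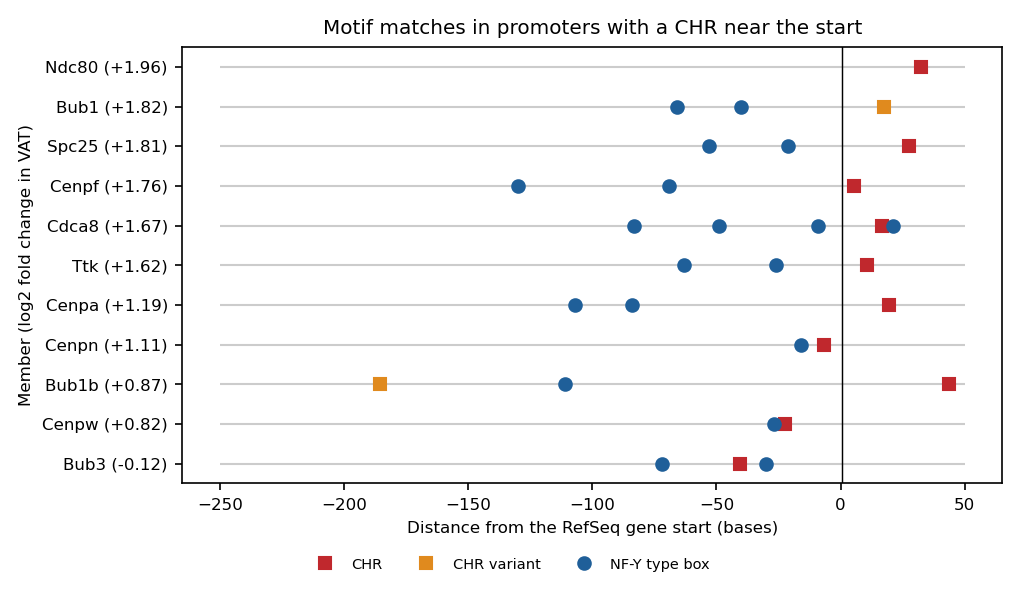
Matches to the CHR (red squares), its variant (orange squares) and the NF-Y type box (blue circles) by distance from the RefSeq gene start, in bases, for the 11 members with a CHR within 50 bases of it. Members are ordered by their log2 fold change in VAT (in brackets), from 1.96 for Ndc80 to -0.12 for Bub3. For a gene with several promoters, only the promoter that holds the CHR near its start is drawn.

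Among the inner centromere genes, 6 of 14 were higher in KO SAT and 8 of 14 in KO VAT, with median log2 fold changes of 0.65 and 0.90. Cenpa (chr5:30666777-30674830, mm10) encodes the centromeric histone itself. It read 3.68, 3.47, 4.07 and 4.10 CPM in WT SAT and 5.84, 7.07, 6.5 and 9.12 in KO SAT. Among the VAT libraries it read 4.03, 4.17, 3.54 and 3.97 in WT and 7.69, 8.38, 9.63 and 10.1 in KO. Every KO library stood above every WT library of its depot, and Cenpa rose by 0.90 ± 0.14 (adjusted p = 0.000716) in SAT and by 1.19 ± 0.14 (adjusted p = 6.06e-05) in VAT. Cenpb encodes a protein that binds a short box in satellite DNA and is not needed for a centromere to form. Its levels were 209, 201, 253 and 205 CPM in WT SAT against 178, 193, 178 and 185 in KO SAT, and 183, 176, 176 and 196 in WT VAT against 166, 174, 181 and 194 in KO VAT. The SAT groups did not overlap, with WT higher and replicate 3 of WT highest, but the change of -0.24 ± 0.08 (adjusted p = 0.0766) did not pass the edgeR test, while DESeq2 gave an adjusted p of 0.0268 (0.0268 to 0.177 over all alternatives). In VAT the groups overlapped, at -0.03 ± 0.08 (adjusted p = 0.889). Cenpc1 encodes the scaffold that links CENP-A chromatin to the outer kinetochore. It read 15.1, 15.4, 11.7 and 17.5 CPM in WT SAT and 20.4, 16.7, 17.9 and 19.1 in KO SAT, groups that overlapped, and its changes of 0.31 ± 0.11 (adjusted p = 0.115) in SAT and -0.07 ± 0.11 (adjusted p = 0.816) in VAT were not called.

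For all 4 genes of the CENP-H/I/K/M module of the CCAN, the KO libraries lay above the WT libraries in both depots. Cenpm read 0.662, 0.511, 0.835 and 0.967 CPM in WT SAT and 1.87, 1.19, 1.29 and 1.89 in KO SAT. Its VAT values were 1.13, 0.664, 1.07 and 0.817 in WT and 2.92, 2.62, 2.94 and 4.36 in KO. Its KO libraries were all above the WT libraries of the same depot, and replicate 4 of KO VAT was highest. Cenpm rose by 1.07 ± 0.26 (adjusted p = 0.0227) in SAT and 1.80 ± 0.25 (adjusted p = 0.000306) in VAT. Cenph, a low member, read 0.320, 0.306, 1.03 and 0.896 CPM in WT SAT and 1.06, 1.09, 1.15 and 1.24 in KO SAT, where WT replicates 3 and 4 lay just below the KO range. In VAT the values were 0.455, 0.519, 0.633 and 0.389 in WT and 1.97, 1.76, 1.94 and 2.53 in KO, far apart. Cenph changed by 0.85 ± 0.33 (adjusted p = 0.142) in SAT, not called, and rose by 2.03 ± 0.33 (adjusted p = 0.00123) in VAT. Cenpi rose by 0.80 ± 0.2 (adjusted p = 0.025) in SAT and 1.43 ± 0.2 (adjusted p = 0.00034) in VAT, and Cenpk by 0.73 ± 0.19 (adjusted p = 0.0296) and 1.0 ± 0.18 (adjusted p = 0.00326). In SAT, the calls of 3 of these genes were lost when any 1 of several libraries was left out. Their log2 fold changes with 1 library left out were 0.66 to 0.91 for Cenpi, 0.66 to 0.86 for Cenpk and 0.92 to 1.23 for Cenpm. Without WT replicate 3 or 4 or KO replicate 1, 2 or 4, Cenpi had an adjusted p of 0.0508 to 0.0845. Without WT replicate 1, 3 or 4 or KO replicate 2, 3 or 4, Cenpk had 0.0529 to 0.0950, and without WT replicate 1 or 2 or KO replicate 1 or 4, Cenpm had 0.0598 to 0.0808. With only the compared groups in the edgeR fit, adjusted p was 0.0831 for Cenpi, 0.104 for Cenpk and 0.0614 for Cenpm. The Cenpk call was also lost with limma-voom (adjusted p = 0.058), no filter on low counts (0.0744) and the replicate block (0.0512).

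Of the paired CCAN proteins CENP-L and CENP-N, which read the CENP-A nucleosome, Cenpn rose by 0.81 ± 0.16 (adjusted p = 0.00556) in SAT and 1.11 ± 0.16 (adjusted p = 0.000328) in VAT. Cenpl read 5.30 to 6.41 CPM in WT SAT and 5.88 to 7.0 in KO SAT, a change of 0.10 ± 0.10 (adjusted p = 0.571) that was not called, and rose by 0.40 ± 0.10 (adjusted p = 0.0293) in VAT. That VAT call ended without WT replicate 1, 2 or 3 or KO replicate 1, 2 or 3 (adjusted p 0.0520 to 0.0888). It was also lost with no filter on low counts (0.0853) and with the replicate block (0.061). In the CENP-O/P/Q module, Cenpq rose by 0.91 ± 0.19 (adjusted p = 0.0085) in SAT and stood at 0.66 ± 0.19 (adjusted p = 0.0545) in VAT, where it passed without WT replicate 4 (adjusted p = 0.0306). With all libraries kept, Cenpq also passed in VAT with DESeq2 (adjusted p = 0.0115) and limma-voom (0.0418). It passed there too with library totals alone (0.0466) and with a filter of at least 1 CPM in 4 libraries (0.0444). Cenpp stood at 0.38 ± 0.23 (adjusted p = 0.339) in SAT and rose by 0.98 ± 0.22 (adjusted p = 0.0182) in VAT, a call that ended without WT replicate 2 or KO replicate 4 (adjusted p 0.0571 to 0.0684). Cenpo read 5.85 to 6.18 CPM in WT SAT and 6.24 to 7.26 in KO SAT. The VAT libraries gave 4.81 to 5.90 (WT) and 4.92 to 5.60 (KO), with no call in either depot. The library kit does not keep strand, and the exons of Cenpo share 19.0% of their bases with Adcy3 on the opposite strand and those of Cenpp 12.3% with Ippk, so reads in those parts cannot be assigned to either gene. The histone-fold pair CENP-T and CENP-W offers a second road to the outer kinetochore. Cenpt stood at 0.09 ± 0.13 (adjusted p = 0.738) in SAT and 0.34 ± 0.13 (adjusted p = 0.168) in VAT. Cenpw stood at 0.57 ± 0.33 (adjusted p = 0.32) and 0.82 ± 0.30 (adjusted p = 0.154), and with as few as 10 counts a library its 95% interval in VAT, 0.18 to 1.46, spans both a small and a large change.

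Of the 9 outer kinetochore genes, 5 were higher in KO SAT and 6 in KO VAT (median log2 fold changes 0.73 and 1.11). All 4 genes of the NDC80 complex, the microtubule-binding rod, rose in both depots. Ndc80 (chr17:71496100-71526857) read 1.03, 0.817, 0.601 and 1.16 CPM in WT SAT and 3.07, 3.01, 2.76 and 3.55 in KO SAT. VAT libraries gave 0.867, 0.830, 0.732 and 1.17 in WT and 2.76, 2.95, 3.49 and 4.90 in KO. The KO libraries lay well clear of the WT libraries in both depots, and Ndc80 rose by 1.77 ± 0.23 (adjusted p = 0.000188) in SAT and 1.96 ± 0.23 (adjusted p = 6.56e-05) in VAT. Nuf2, its partner at the microtubule end of the rod, read 1.92, 1.12, 0.768 and 2.71 CPM in WT SAT and 5.98, 5.60, 5.03 and 7.19 in KO SAT, and 2.41, 2.78, 2.45 and 2.28 in WT VAT and 6.53, 8.58, 8.98 and 7.81 in KO VAT. WT SAT was the more scattered group, yet the groups stayed apart, with rises of 1.84 ± 0.26 (adjusted p = 0.000348) and 1.68 ± 0.25 (adjusted p = 0.000524). Spc24 and Spc25 form the inner end of the rod. Spc24 read 0.914, 1.02, 1.34 and 1.46 CPM in WT SAT and 2.55, 2.77, 2.41 and 3.51 in KO SAT. For VAT the values were 1.21, 1.18, 0.950 and 1.24 in WT and 3.17, 2.92, 3.97 and 4.67 in KO. Its groups did not overlap in either depot. Spc25 read 1.51, 1.86, 2.14 and 2.69 CPM in WT SAT and 5.28, 4.51, 5.98 and 6.32 in KO SAT. WT VAT gave 2.17, 1.91, 1.46 and 2.04 and KO VAT 5.09, 7.08, 7.34 and 7.11. Here too KO stood apart from WT, although replicate 1 of KO VAT was lowest of its group. Spc24 rose by 1.25 ± 0.2 (adjusted p = 0.00125) in SAT and 1.68 ± 0.2 (adjusted p = 8.37e-05) in VAT, and Spc25 by 1.43 ± 0.19 (adjusted p = 0.000188) and 1.81 ± 0.19 (adjusted p = 2.14e-05).

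Of the 4 genes of the MIS12 complex, which ties NDC80 to the CCAN, Pmf1 and Nsl1 were called in VAT, Dsn1 in SAT and Mis12 in neither. Mis12 read 12.7, 13.6, 13.7 and 14.1 CPM in WT SAT and 11.4, 13.1, 16.1 and 12.5 in KO SAT. Its VAT values were 13.3, 12, 13.6 and 13.8 in WT and 14.4, 13.3, 14.1 and 14.4 in KO, and the groups overlapped in both depots. Its log2 fold changes were -0.03 ± 0.09 (adjusted p = 0.894) and 0.09 ± 0.09 (adjusted p = 0.676), and 7.69% of its exon bases are shared with Derl2 on the opposite strand. Pmf1, by contrast, read 5.62, 4.73, 6.04 and 6.07 CPM in WT VAT and 9.11, 7.96, 9.35 and 12 in KO VAT, without overlap, and rose by 0.77 ± 0.14 (adjusted p = 0.00286). In SAT it overlapped (4.23, 3.5, 4.81 and 4.01 in WT and 4.78, 4.74, 4.30 and 5.59 in KO) at 0.23 ± 0.14 (adjusted p = 0.34). Nsl1 stood at 0.73 ± 0.24 (adjusted p = 0.0852) in SAT, where it passed without WT replicate 2 (adjusted p = 0.0229) and with DESeq2 (adjusted p = 0.0331), and rose by 1.11 ± 0.23 (adjusted p = 0.0105) in VAT. Dsn1 rose by 0.62 ± 0.14 (adjusted p = 0.015) in SAT, a call lost without KO replicate 4 (adjusted p = 0.0589) and with only the compared groups (adjusted p = 0.0722), and stood at 0.35 ± 0.14 (adjusted p = 0.192) in VAT. Zwint, which recruits the motor adaptor complex RZZ to kinetochores, read 53.9, 50.2, 58.9 and 51.8 CPM in WT SAT and 49.4, 53.3, 54.2 and 56.1 in KO SAT. In VAT it read 50, 52.5, 53.3 and 49.7 in WT and 51.3, 54.1, 52.0 and 51.1 in KO. All 16 libraries fell within a narrow band and the groups overlapped, at -0.01 ± 0.06 (adjusted p = 0.937) and 0.02 ± 0.06 (adjusted p = 0.914).

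**Figure D4:**
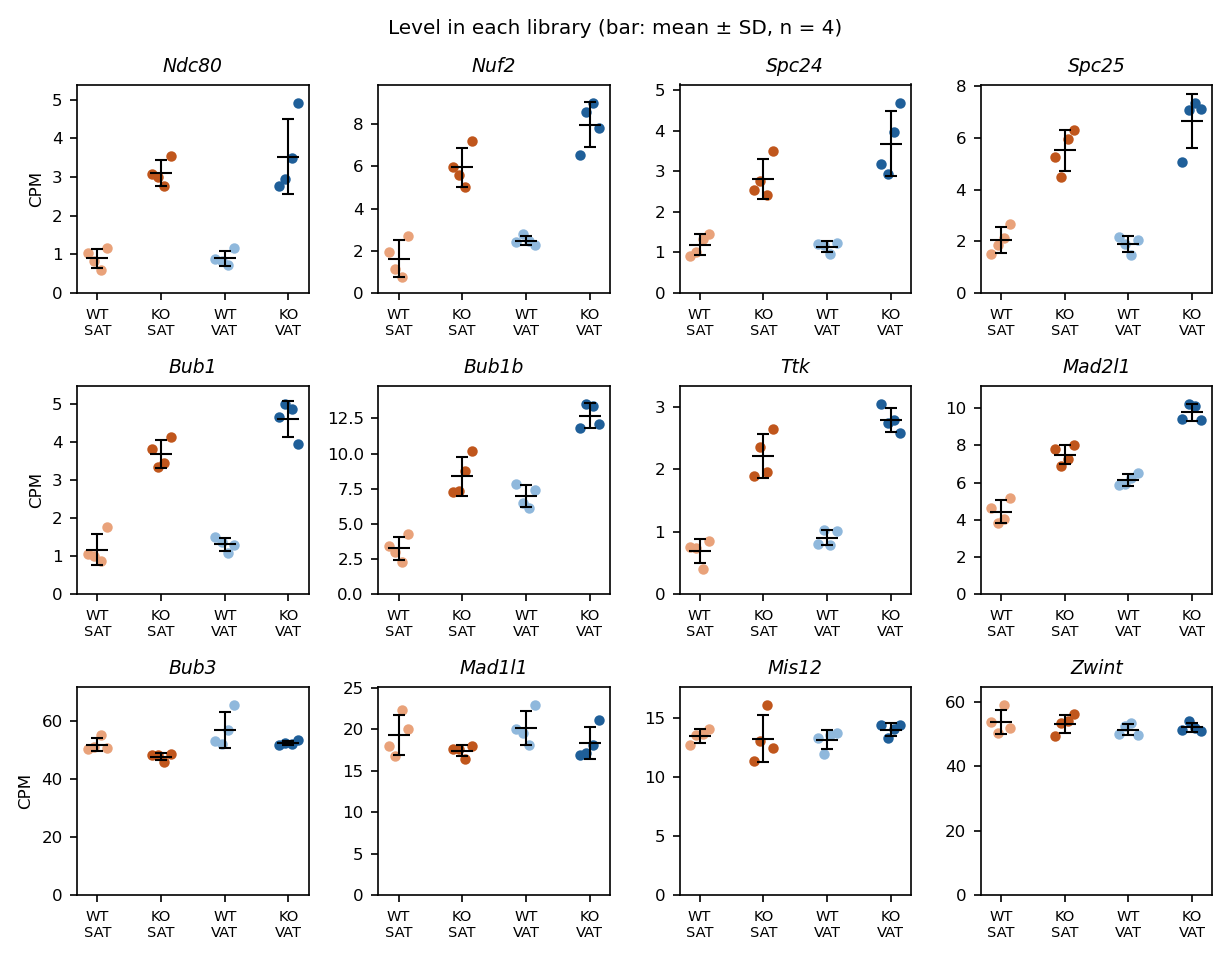
CPM in each library (points) with mean ± SD (bars, n = 4) for 12 members in WT SAT, KO SAT, WT VAT and KO VAT. The NDC80 complex genes and Bub1, Bub1b, Ttk and Mad2l1 have KO libraries above all WT libraries of the depot, whereas Bub3, Mad1l1, Mis12 and Zwint stay level or overlap, apart from Bub3 in SAT, where KO read 45.8 to 48.8 and WT 50.5 to 55.1.

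Both corona genes rose in both depots. Cenpe encodes a kinesin that carries chromosomes along microtubules, and it read 1.80, 2.48, 3.74 and 3.40 CPM in WT SAT and 5.02, 5.70, 5.42 and 7.5 in KO SAT. Among the VAT libraries it read 3.10, 2.51, 2.20 and 1.85 in WT and 8.97, 7.63, 9.52 and 9.43 in KO. The KO libraries of VAT clustered at the top of the whole series for this gene, and Cenpe rose by 1.06 ± 0.21 (adjusted p = 0.00539) in SAT and 1.88 ± 0.21 (adjusted p = 3.99e-05) in VAT. Cenpf, a large coiled-coil protein that gathers at kinetochores in late G2, read 3.15, 1.91, 1.97 and 3.26 CPM in WT SAT and 7.23, 8.53, 8.94 and 10.7 in KO SAT. The VAT libraries gave 4.55, 3.59, 2.40 and 2.51 (WT) and 11, 9.70, 12.1 and 11.4 (KO). No WT library reached any KO library, and the rises were 1.77 ± 0.21 (adjusted p = 0.000119) and 1.76 ± 0.21 (adjusted p = 8.01e-05). Cenpj, whose protein sets centriole length and is not a kinetochore part, stood at 0.16 ± 0.10 (adjusted p = 0.334) in SAT and 0.07 ± 0.10 (adjusted p = 0.802) in VAT. Its levels were 10.6 to 11.8 CPM in WT SAT and 12 to 13.6 in KO SAT. For VAT the values were 7.66 to 10.3 in WT and 8.51 to 10.5 in KO.

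Among the 6 checkpoint genes, 4 rose in both depots and 2 were called in neither (median log2 fold changes 1.06 in SAT and 0.77 in VAT). Bub1, a kinase that marks the inner centromere and loads other checkpoint proteins, read 1.05, 0.996, 0.868 and 1.77 CPM in WT SAT and 3.82, 3.34, 3.45 and 4.14 in KO SAT. In VAT the values were 1.5, 1.37, 1.09 and 1.28 in WT and 4.65, 4.99, 4.88 and 3.94 in KO. All KO libraries stood clear of WT, and Bub1 rose by 1.64 ± 0.19 (adjusted p = 0.000103) in SAT and 1.82 ± 0.19 (adjusted p = 2.71e-05) in VAT. Bub1b encodes BubR1, part of the inhibitor of the anaphase-promoting complex, and read 3.43, 3.01, 2.30 and 4.27 CPM in WT SAT and 7.30, 7.33, 8.73 and 10.2 in KO SAT. VAT libraries gave 7.80, 6.48, 6.12 and 7.43 in WT and 11.8, 13.5, 13.4 and 12.1 in KO. WT VAT lay where KO SAT begins, and the rises were 1.36 ± 0.16 (adjusted p = 9.91e-05) in SAT and 0.87 ± 0.15 (adjusted p = 0.00239) in VAT. Ttk, the MPS1 kinase that starts checkpoint signalling, read 0.754, 0.740, 0.401 and 0.849 CPM in WT SAT and 1.90, 2.36, 1.95 and 2.64 in KO SAT. WT VAT gave 0.802, 1.02, 0.792 and 1.01 and KO VAT 3.04, 2.75, 2.79 and 2.58. Its groups did not overlap, and it rose by 1.67 ± 0.21 (adjusted p = 0.000148) and 1.62 ± 0.2 (adjusted p = 0.000108). Mad2l1, the MAD2 protein that binds and holds the activator CDC20, read 4.64, 3.83, 4.01 and 5.19 CPM in WT SAT and 7.83, 6.87, 7.26 and 8.0 in KO SAT. Its VAT values were 5.85, 5.92, 6.26 and 6.5 in WT and 9.42, 10.2, 10.1 and 9.36 in KO. It rose by 0.76 ± 0.10 (adjusted p = 0.000292) and 0.67 ± 0.10 (adjusted p = 0.000656), with narrow groups that stayed apart.

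The other 2 checkpoint genes were not called in either depot. Bub3, the partner on which BUB1 and BubR1 ride to the kinetochore, read 50.5, 51.2, 55.1 and 50.6 CPM in WT SAT and 48.2, 48.3, 45.8 and 48.8 in KO SAT. In VAT it read 53.0, 52.0, 57.1 and 65.4 in WT and 51.7, 52.3, 52.2 and 53.5 in KO. The SAT groups did not overlap, with WT higher, and the VAT groups did. Its log2 fold changes were -0.12 ± 0.07 (adjusted p = 0.317) and -0.12 ± 0.07 (adjusted p = 0.399). Mad1l1, the MAD1 scaffold that converts MAD2, read 18.0, 16.8, 22.3 and 20.1 CPM in WT SAT and 17.7, 17.7, 16.4 and 18.0 in KO SAT. The VAT libraries gave 20.1, 19.6, 18.1 and 22.9 (WT) and 16.9, 17.2, 18.1 and 21.1 (KO). Its groups overlapped in both depots, at -0.14 ± 0.10 (adjusted p = 0.405) and -0.14 ± 0.10 (adjusted p = 0.515). Within partner pairs the sizes thus differed: Bub1 and Bub1b against Bub3, and Mad2l1 against Mad1l1, a difference between genes that was described and not tested.

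All 4 passenger complex genes rose in both depots, and their summed level was 9.96 to 16.6 CPM in WT SAT and 25.4 to 32.0 in KO SAT. For VAT the values were 13.7 to 18.2 in WT and 32.4 to 41.9 in KO. Aurkb, the Aurora B kinase, read 1.46, 1.28, 1.14 and 2.43 CPM in WT SAT and 5.26, 4.12, 4.62 and 6.13 in KO SAT. Among the VAT libraries it read 2.69, 2.08, 1.96 and 3.5 in WT and 5.80, 6.27, 7.32 and 5.93 in KO. KO stood above WT throughout, with rises of 1.66 ± 0.23 (adjusted p = 0.00032) in SAT and 1.31 ± 0.22 (adjusted p = 0.0018) in VAT. Birc5, the survivin subunit that reads a phosphorylated histone at the centromere, read 1.39, 0.817, 1.54 and 2.05 CPM in WT SAT and 4.35, 5.21, 4.21 and 5.63 in KO SAT. WT VAT gave 2.41, 2.89, 2.16 and 2.72 and KO VAT 6.05, 6.29, 6.36 and 7.62. It rose by 1.74 ± 0.21 (adjusted p = 0.000103) and 1.37 ± 0.19 (adjusted p = 0.000369), without overlap. Cdca8, the borealin subunit, read 2.17, 1.51, 2.57 and 2.78 CPM in WT SAT and 4.44, 5.31, 4.57 and 7.15 in KO SAT. Its VAT values were 2.73, 2.39, 2.10 and 3.42 in WT and 7.29, 7.30, 9.0 and 10.3 in KO. Its groups were also apart, with rises of 1.25 ± 0.21 (adjusted p = 0.00178) and 1.67 ± 0.21 (adjusted p = 0.000104). Incenp, the scaffold of the complex and its most abundant member per length, read 7.13, 6.36, 9.45 and 9.29 CPM in WT SAT and 11.9, 11.6, 12 and 13.1 in KO SAT. The VAT libraries gave 7.24, 7.06, 7.5 and 8.56 (WT) and 13.2, 14.7, 14.7 and 18.0 (KO). The rise of Incenp was the smallest of the 4, 0.59 ± 0.13 (adjusted p = 0.0107) and 1.0 ± 0.13 (adjusted p = 0.000128). Set side by side, the checkpoint and passenger genes were called higher in 8 of 10 cases in SAT and 8 of 10 in VAT (medians 1.31 and 1.15), and the inner centromere genes in 6 and 8 of 14. The summed level of the 14 inner centromere genes, in which Cenpb is the largest term, was 249 to 303 CPM in WT SAT and 239 to 258 in KO SAT. For VAT the values were 230 to 254 in WT and 243 to 272 in KO.

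**Figure D5:**
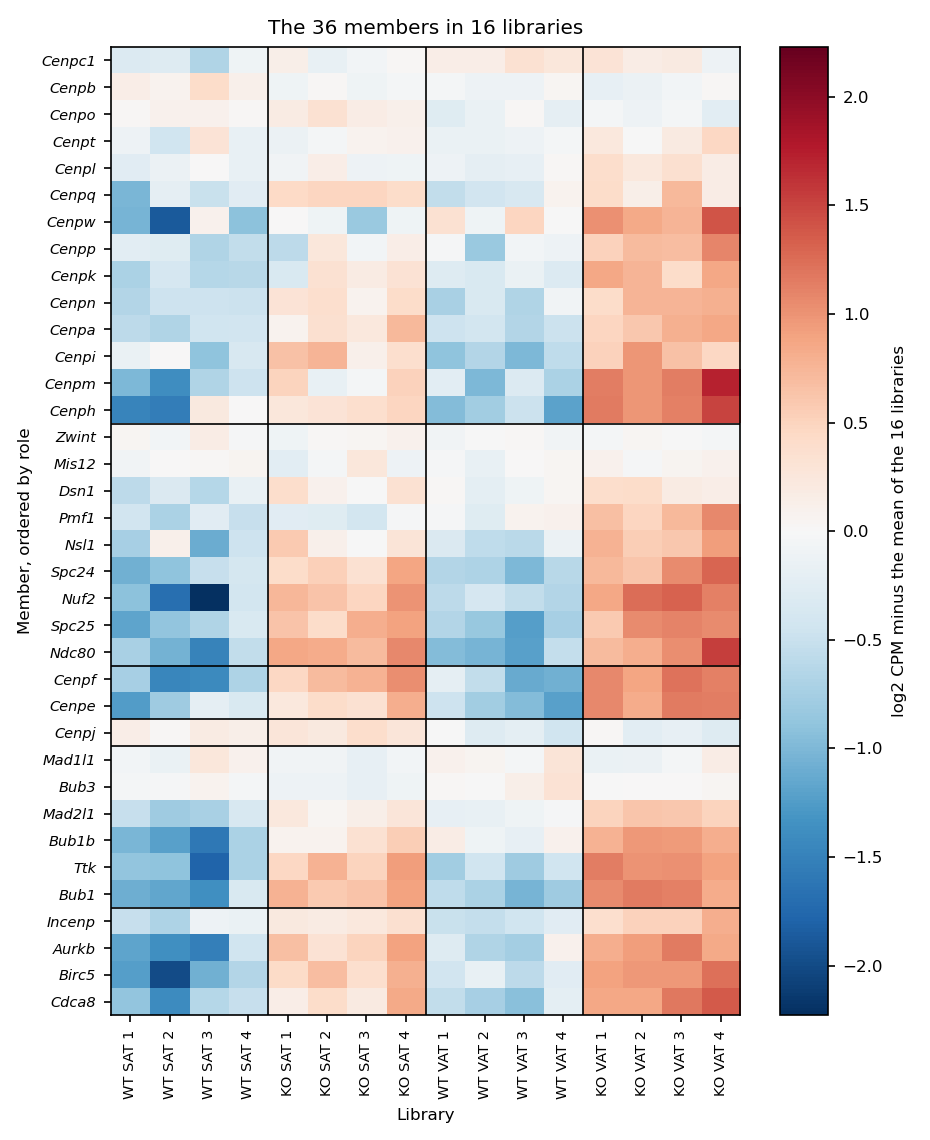
Log2 CPM of each member (rows, ordered by role) in each of the 16 libraries (columns), as the difference from the member's mean over all libraries. The 19 members called in both depots are lower in the WT than in the KO libraries of the same depot, and rows such as Zwint, Mis12 and Bub3 stay near 0.

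Whether the KO effect differed between the depots was tested as an interaction, the VAT effect minus the SAT effect. Of the 36 members 0 were called by edgeR, against 0.267% of all genes, and DESeq2 and limma-voom also called 0. At an unadjusted p under 0.05, 7 members passed (19.4%, near the 16% of all genes). The effect was larger in VAT for 23 members and larger in SAT for 13, with a median difference of 0.2. Over all tested genes the difference was positive for 9066 of 16842, with a median of 0.03. Cenpe had the smallest adjusted p, at 0.82 ± 0.29 (adjusted p = 0.196) with a 95% interval of 0.21 to 1.43. Cenph, called in VAT alone, differed by 1.19 ± 0.46 (adjusted p = 0.233), with an interval of 0.21 to 2.16, and Pmf1, also called in VAT alone, by 0.54 ± 0.2 (adjusted p = 0.209). Bub1b differed the other way, by -0.49 ± 0.22 (adjusted p = 0.285), with an interval of -0.95 to -0.03. A call in 1 depot and not in the other therefore does not show that these members differ between depots. For Bub3 the interval of the difference was -0.2 to 0.2, for Zwint -0.15 to 0.22 and for Ndc80 -0.48 to 0.87.

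The depots were also compared directly. In WT, 7 members were higher in VAT than in SAT (Bub1b, Cenpw, Birc5, Aurkb, Cenpc1, Mad2l1 and Pmf1) and 2 were lower (Cenpj and Cenpb), where 19.1% of all genes were called higher and 17.6% lower. In KO, 12 were higher (Cenpw, Cenpm, Pmf1, Cenph, Cenpp, Cdca8, Bub1b, Cenpe, Cenpk, Mad2l1, Cenpl and Incenp) and 2 lower (Cenpj and Cenpo), where 23.3% of all genes were called higher and 20% lower. The WT share of higher members thus lies at the background. Bub1b had the largest WT difference, at 1.09 ± 0.16 (adjusted p = 3.54e-05), and Pmf1 the smallest adjusted p in KO, at 0.98 ± 0.14 (adjusted p = 1.89e-05). Bub1b (0.60 ± 0.15 (adjusted p = 0.00388) in KO), Cenpw, Mad2l1 and Pmf1 were higher and Cenpj lower in VAT in both genotypes. Ndc80 did not pass in either genotype (-0.02 ± 0.24 (adjusted p = 0.968) in WT and 0.18 ± 0.21 (adjusted p = 0.517) in KO), nor did Spc25, Ttk or Cenpa.

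These depot counts depended on scaling. With library totals alone, the median log2 difference of all genes moved to 0.30 in WT and 0.36 in KO, the share of higher among all calls went from 52.0 to 85.6% in WT and from 53.8 to 86.7% in KO, and 18 and 33 members were called higher with 0 lower. Under that scaling Cenpb in WT turned to 0.06 and Cenpo in KO to 0.04. Several depot calls were also lost when 1 library was left out, most of them for any 1 of several libraries. In WT, the Aurkb call ended when replicate 1, 2 or 3 of WT SAT or replicate 1 or 4 of WT VAT was left out (adjusted p 0.0603 to 0.112), and the Cenpw call without WT SAT replicate 1, 2 or 4 or WT VAT replicate 1 or 3 (0.0585 to 0.0817). Pmf1 was lost in WT without WT SAT replicate 2 or WT VAT replicate 3 or 4 (0.0540 to 0.0824), and Cenpb without WT VAT replicate 2 or 3 (0.0552 to 0.0557). In KO, Incenp was lost without any 1 of the KO SAT replicates or KO VAT replicate 2, 3 or 4 (0.0546 to 0.170), and Cenph without any 1 of the KO SAT replicates or KO VAT replicate 1, 3 or 4 (0.0521 to 0.0957). With all libraries but no filter on low counts, Incenp (0.0639), Cenph (0.054) and Cenpo (0.0549) were lost in KO too. Cenpe was lost in KO without KO SAT replicate 1, 2 or 3 or KO VAT replicate 3 or 4 (0.0523 to 0.0718), Cenpk without KO SAT replicate 1 (0.0511) and Cenpo without KO SAT replicate 2 (0.0542). Without WT SAT replicate 2, 4 members were higher in WT, and without KO SAT replicate 1, 8 were higher in KO.

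A list of 53 further genes of centromere loading, kinetochore, checkpoint exit and cohesion was read beside the members. In each depot 16 of the 53 were higher and 0 lower in KO, and they were the same 16 genes, with list medians of 0.16 in SAT and 0.04 in VAT. Of all tested genes, 3.46% were called higher in SAT and 2.84% in VAT. At an unadjusted p under 0.05, 23 of the 53 (43.4%) passed in SAT and 21 (39.6%) in VAT, in either direction, beside 22.5% and 17.4% of all genes. Trip13, the ATPase that recycles MAD2, rose by 1.17 ± 0.15 (adjusted p = 0.00013) in SAT and 1.23 ± 0.14 (adjusted p = 5.46e-05) in VAT. Cdc20, the activator that the checkpoint restrains, rose by 1.15 ± 0.2 (adjusted p = 0.00197) and 1.64 ± 0.19 (adjusted p = 8.01e-05), and Ube2c, the ubiquitin-conjugating enzyme of the anaphase-promoting complex, by 1.28 ± 0.18 (adjusted p = 0.000358) and 1.71 ± 0.18 (adjusted p = 2.45e-05). Cdca5, the cohesin-protecting sororin, rose by 1.44 ± 0.19 (adjusted p = 0.000236) and 1.99 ± 0.19 (adjusted p = 8.7e-06), and Esco2, which acetylates cohesin in S phase, by 1.93 ± 0.25 (adjusted p = 0.000213) and 2.0 ± 0.25 (adjusted p = 9.65e-05). By sublist, the genes called higher in each depot were 1 of 8 for CENP-A loading, 2 of 4 for the remaining CCAN and KNL1 genes, 5 of 13 for the SKA, RZZ and corona genes, 3 of 12 for checkpoint exit and 5 of 16 for cohesion. Cohesin's core genes and the core subunits of the anaphase-promoting complex were not among the 16.

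Markers of other cell types were read beside these results. Of 6 general proliferation genes (Mki67, Top2a, Pcna, Ccnb1, Ccna2 and Cdk1), 5 were higher in KO in each depot, with medians of 1.55 in SAT and 1.64 in VAT. For these and the marker lists below, the share of all tested genes called higher in KO was 3.46% in SAT and 2.84% in VAT. Of 6 adipocyte markers, 4 were higher in KO VAT and 0 in KO SAT. In VAT, Adipoq averaged 18.9 ± 2.77 CPM (SD) in WT and 53.5 ± 13.5 in KO, Plin1 35.9 ± 3.72 and 93.7 ± 20.6, Cidec 6.52 ± 1.12 and 13.2 ± 3.41, and Retn 3.28 ± 1.01 and 8.1 ± 2.24 (genes named after their values were seen), with no overlap between the groups. Fabp4, most of the list's sum, averaged 926 ± 85.6 and 983 ± 159 and was not called, and the sums overlapped (914 to 1110 CPM in WT VAT against 891 to 1360 in KO VAT). Of 11 tested macrophage and myeloid markers, 1 was higher in KO VAT and 0 in KO SAT, and the sums overlapped (42.5 to 66.5 CPM in WT VAT against 36.7 to 64.2 in KO VAT, 25.7 to 37.4 in WT SAT against 30.2 to 38.3 in KO SAT). Lymphocyte markers summed to 3.21 to 7.41 CPM over the 4 groups. Pericyte and smooth muscle markers summed to 2780 to 4620 CPM in WT SAT and 2200 to 3050 in KO SAT. In VAT their sums were 5500 to 5950 in WT and 5100 to 6440 in KO. Of these 9 markers 1 was lower in KO SAT (2.43% of all genes were) and 0 were called in KO VAT. Between depots 7 of the 9 were higher in VAT in each genotype, beside 19.1% of all genes in WT and 23.3% in KO. The mesothelium sum was 791 to 1530 CPM in WT VAT, 790 to 1510 in KO VAT and 6.63 to 10.4 over the SAT libraries, so that it differed by depot while WT and KO overlapped. Endothelial markers summed lower in KO VAT (173 to 195 CPM) than in WT VAT (208 to 230) and overlapped in SAT (249 to 291 in WT and 278 to 349 in KO). Of the 9 endothelial markers 0 were called in KO VAT, and 4 had a positive log2 fold change, so the sum does not describe the list. Its largest terms in VAT were Esam (90.4 CPM in WT and 76.7 in KO) and Tek (78.4 and 62.9), while Pecam1 averaged 1.84 and 1.71. In KO SAT 1 of the 9 was called higher and 0 lower. The part of these cell types in the members' changes was not tested.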

How the data were processed

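RNA from adipose progenitors was sequenced in 16 libraries, 4 per group. Per the labels' protocols, the kit was NEBNext Ultra RNA, which does not mark strand, with single reads. The tools featureCounts, STAR, DESeq and FastQC and the build mm10 are named per the submitters' processing notes. For versions, annotation and strand setting nothing is given in the sources used here. The authors deposited a table of counts per gene symbol, from which all tests started, and scaled values of the unit signal. Dividing a library's counts by a single factor returned the deposited signal values (largest relative deviation 4.94e-10), which were used no further.

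Counts were filtered with filterByExpr, scaled by TMM and fitted in edgeR 4.0.16 (R 4.3.3, limma 3.58.1) with 1 coefficient per group over all 16 libraries and 12 residual degrees of freedom. The biological coefficient of variation was 0.156. Fold changes carry SE, taken as the absolute log2 fold change over the square root of F, and 95% intervals. The fit was tested on simulated data. DESeq2 1.42.0, limma-voom, other scalings and filters, the compared groups alone, a replicate block and leaving out each library were alternatives. No replicates of a group agreed within sampling noise (smallest chi-square per gene 13.1). Positions and exon lengths came from GENCODE vM21 (GRCm38, the assembly of mm10) and promoters from RefSeq (GRCm38.p6). Tables and figures were made with Python 3.11.15, pandas 2.3.3 and matplotlib 3.10.9.

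The members and lists were chosen with earlier results of these data known. Genes named by rule were all 36 members, the 4 genes of the further list with the smallest p in each knockout comparison, Nr4a1, and the markers Ptprc, Pecam1, Msln and Pdgfra. Outside this choice, the text names the markers Adipoq, Plin1, Cidec, Retn, Fabp4, Esam, Tek and Acta2 and the general proliferation genes. Adcy3, Ippk and Derl2 are named for shared exon bases. The values of 1 further gene and 1 promoter sequence are not reported here.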

Additional observations from a re-analysis of the deposited data

Results flagged for a closer look

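In groups of 4 libraries, 8 values of members stood apart from the other libraries of their group by more than Dixon's 95% limit. With 144 groups examined (36 members in 4 groups), chance alone would give about 7.2 such values. In WT SAT, replicate 3 was far above the others for Cenpb, at 253 CPM, and for Bub3, at 55.1 CPM, and replicate 1 was below the others for Cenpn, at 1.64 CPM. In KO SAT, replicate 2 was high for Cenpl, at 7.0 CPM, and replicate 3 was low for Cenpw, at 0.529 CPM. In WT VAT, replicate 2 was low for Cenpp, at 0.809 CPM. In KO VAT, replicate 1 was low for Cenpn, at 3.43 CPM, and for Spc25, at 5.09 CPM. Each of the low KO VAT values still lay above all WT VAT libraries of its gene.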

How the results depend on the processing

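The count of members higher in KO stayed at 17 to 22 in SAT and 20 to 25 in VAT over all alternatives, and no member was called lower in VAT. Leaving out 1 library gave 17 to 21 in SAT and 22 to 25 in VAT. DESeq2 called 1 member lower in SAT (Cenpb). The interaction called 0 members under every alternative. The replicate block gave 20 members higher in SAT and 23 in VAT. Same-numbered libraries of different groups correlated at -0.16 to 0.176, with 3 of 4 pairs over 0.1 between WT SAT and WT VAT and at most 1 of 4 between other groups, so the numbers were not taken as a pairing. Between depots the block gave 7 members higher and 2 lower in WT and 14 higher and 2 lower in KO. Over all genes the block gave 873 calls in SAT and 611 in VAT. Depot counts moved most. In WT, members higher in VAT went from 7 to 18 with library totals and to 4 to 8 when 1 library was left out, and members lower went from 2 to 0 with library totals, to 1 with only the compared groups, to 1 without replicate 4 of any group and to 1 to 3 when 1 library was left out. In KO, members higher went from 12 to 33 with library totals and to 8 to 13 with 1 library left out, and members lower from 2 to 0 with library totals, to 1 with no filter, to 1 without replicate 4 of any group and to 1 to 2 with 1 library left out. Over all genes, calls went in SAT from 992 to 1691 with DESeq2, 509 with only the compared groups (72.1% higher, against 58.7%), 601 without replicate 4 of any group and 469 to 1015 with 1 library left out. In VAT they went from 690 to 1238 with DESeq2, 289 without replicate 4 of any group (80.3% higher, against 69.3%; 80.9% with library totals) and 412 to 625 with 1 library left out. Interaction calls went from 45 to 29 with library totals, 527 with DESeq2, 14 with the replicate block, 0 without replicate 4 of any group and 7 to 149 with 1 library left out. The cause of these shifts was not tested, beyond the smaller number of libraries where some were left out. With library totals the sign turned for 2 called depot differences, Cenpb in WT (-0.25 to 0.06) and Cenpo in KO (-0.30 to 0.04), and Cenpb gave 0.02 in the VAT knockout comparison, where it was not called. Without replicate 4 of any group Cenpc1 gave 0.01 in VAT and Mis12 0.02 in SAT. Leaving out 1 library gave Cenpb -0.08 to 0.00, Cenpc1 -0.13 to 0.00, Cenpj 0.00 to 0.15 and Cenpo -0.01 to 0.10 in VAT, and Cenpt -0.03 to 0.23, Mis12 -0.13 to 0.04 and Zwint -0.05 to 0.03 in SAT. The TTTGAA share of member promoters was 36.1%, 30.6% from 150 bases before to 50 after the start, and 27.8% within 50 bases. Depth limits Cenpw, Cenph, Ttk, Ndc80 and Nsl1 most, whose lowest libraries held 10, 12, 12, 18 and 18 counts.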
